A study of Rattus norvegicus with 18 samples.

Results

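The Hedgehog pathway was followed through its 6 genes Dhh, Shh, Ptch1, Smo, Gli1 and Hhip in proximal segments of the rat sciatic nerve, taken within hours of transection. Members were chosen by name, as the probes outside the array's controls whose gene name, or whose accession in the scanner files, was that of 1 of the 6 genes. This gave 11 probes of 41012 on the array, standing for 6 of 35279 gene names. Dhh and Hhip had 2 probes each, Ptch1 had 2, Gli1 had 3, and Shh and Smo had 1 each. All 11 passed the filter on dim probes, which kept a probe if the software called it well above background on every array of some time-point. Shh passed it through its 6 h and 9 h arrays alone, so its being in the test already depended on where it was high.

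The tissue came from adult male Sprague-Dawley rats whose left sciatic nerve had been cut by removing a short stretch above its division into the tibial and common peroneal nerves, and the proximal stump was sampled at 0 h and at 5 later time-points between 0.5 h and 9 h. All groups shared the anaesthesia, with trichloroacetaldehyde monohydrate, magnesium sulfate and sodium pentobarbital, no other treatment is named, and 0 h was the only control. Each time-point was measured on 3 one-colour Agilent arrays, 18 in all, and whether each array had RNA from a single rat or from pooled rats is not given in the sources used here, so P-values measure the spread between these arrays. The 0 h and 0.5 h arrays were scanned on a first day, the 1 h, 3 h and 6 h arrays and 2 of the 9 h arrays on the second, and the last 9 h array on a day of its own, so scan day and time after the cut cannot be told apart when 1 h or later is set against 0 h. Arrays of 1 time-point correlated with one another at r = 0.958 to 0.993, and 65.9% to 93.5% of their spots were well above background.

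Hedgehog ligands are secreted proteins that bind the receptor Ptch1, which otherwise holds the membrane protein Smo inactive. Once Smo is released, transcription factors of the Gli family act on targets, among which Gli1, Ptch1 and Hhip are the best known, and Hhip itself binds ligand at the cell surface and limits the signal. In peripheral nerve, Dhh is the ligand of Schwann cells and is needed for the perineurial sheath, while Shh is known as a ligand that appears in Schwann cells after injury.

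The Shh probe is printed first because the largest rise rests on it alone. It lay on chromosome 4 of the rat build rn4, plus strand, and spanned chr4:2201100-2206014, so that its 60 bases crossed an exon junction. Of the probes for the other ligands, an Ihh probe was nearest in sequence, with the same base at 35 of the 51 positions that overlapped in the best ungapped alignment, whereas neither Dhh probe matched at more than 20. Capitals mark the bases that the Shh and Ihh probes share.
Shh: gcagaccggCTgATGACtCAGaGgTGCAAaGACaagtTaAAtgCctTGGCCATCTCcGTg
Ihh: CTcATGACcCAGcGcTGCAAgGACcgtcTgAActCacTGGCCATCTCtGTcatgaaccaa

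The Dhh probes are shown because they gave different results. The brighter lay at chr7:137667264-137667323 and the dimmer at chr7:137672005-137672064, both on the minus strand of rn4 and 4741 bases apart. Of the brighter, the first 30 of its 60 bases are given, and of the dimmer all 60.
Dhh, brighter probe: caatctgtcaggaatggaccagaaatatcc
Dhh, dimmer probe: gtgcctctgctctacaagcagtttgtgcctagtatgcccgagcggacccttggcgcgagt

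The brighter Hhip probe, whose fall at 6 h and 9 h passed under all 30 alternatives, lay at chr19:29841726-29841785 of rn4, and its first 30 bases stand for it here.
Hhip, brighter probe: cagcctattcaaagaagtcttgggactaaa

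Levels are given as the processed signal of the scanner software, a linear brightness with the background subtracted, and as its log2 relative to the 75th percentile of the array. Differences are on that log2 scale, from limma fitted to all 6 time-points in 1 model. A probe passed the test, in the F-test over time-points or in a contrast, when its own P-value was under 0.01 and the value adjusted by Benjamini-Hochberg over the 32111 probes tested was under 0.05. A gene was read by its brightest probe. Over the 6 time-points 3 of the 6 members passed the F-test on that reading, namely Shh, Gli1 and Hhip, where 34.8% of all gene names did. Read by any probe, 5 of 6 passed, with Dhh and Ptch1 added, where 36.4% of all gene names did. The members had 11 probes for 6 names, against 32111 probes for the 27199 names tested. By any probe they therefore had more chances to pass than most genes. Of the 11 probes 7 passed, where 34.4% of all probes did, and 6 passed within the 11 arrays of the second scan day, where 19.3% did.

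**Figure D1:**
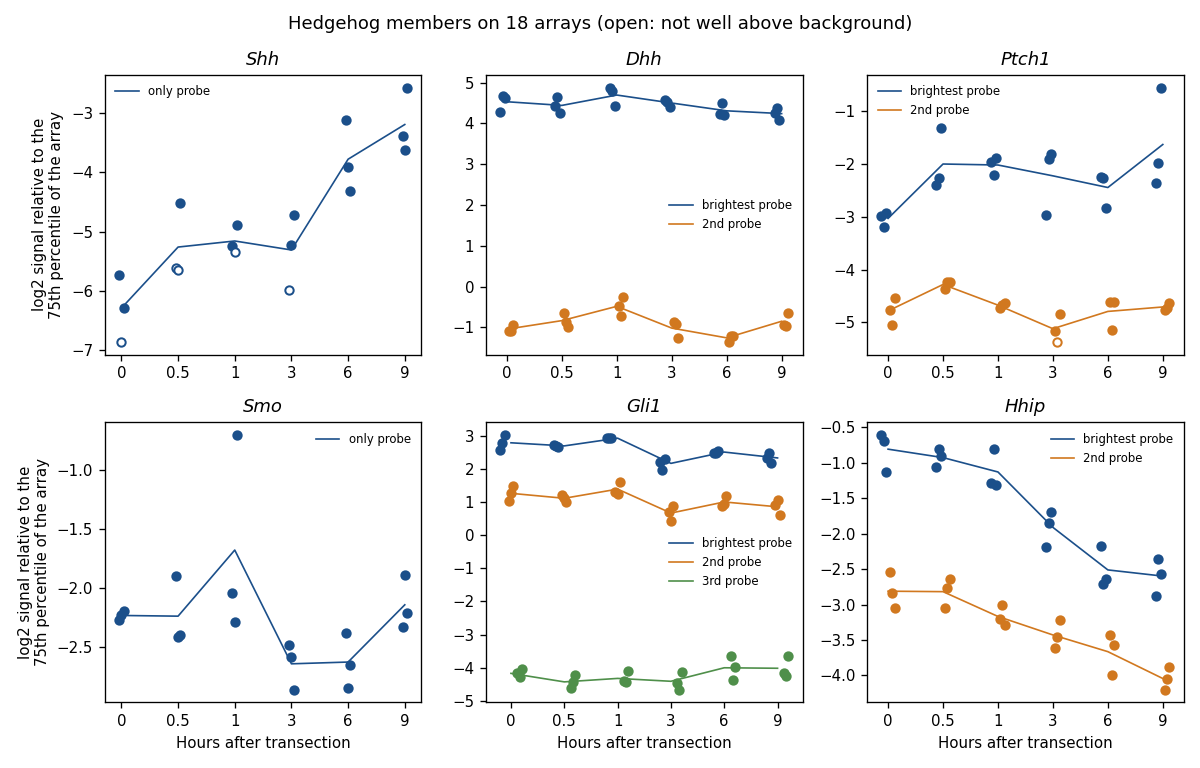
Level of each Hedgehog probe on each of the 18 arrays, as log2 processed signal relative to the 75th percentile of the array, against hours after transection. Points are single arrays, open where the probe was not well above background, and lines join the means of 3 arrays. Shh rose from a mean of -6.29 at 0 h to -3.20 at 9 h, the brightest Hhip probe went from -0.81 to -2.60, and the brighter Dhh probe stayed within a range of 0.80.

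Among the ligands, Shh was close to background at 0 h and higher at 6 h and 9 h. The values are processed signals. At 0 h its arrays gave 24.4, 10.5 and 15.4, at 0.5 h they gave 27.2, 26.8 and 59.6, and at 1 h 30.5, 28.4 and 37.4. At 3 h the signals were 21.0, 31.8 and 46.7, at 6 h they were 175.5, 92.3 and 77.0, and at 9 h 150.4, 118.2 and 279.3. By processed signal, all 6 arrays of 6 h and 9 h were therefore above all 12 earlier ones. Before 6 h, by the same signal, the arrays of 0.5 h, 1 h and 3 h overlapped one another. Those of 0 h overlapped 3 h alone. Without background subtraction the mean signals of early and late arrays overlapped. Array 3 of 0.5 h, at 175.55, lay above arrays 2 and 3 of 6 h, at 165.25 and 155.32.

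The scanner software marked the Shh probe as well above background on 2 of 3 arrays at 0 h, 1 of 3 at 0.5 h, 2 of 3 at 1 h, 2 of 3 at 3 h, and 3 of 3 at both 6 h and 9 h. Its mean signal was 1.73 to 2.09 times the local background at 0 h, and 1.61 to 2.62 times over the 9 arrays of 0.5 h to 3 h. It was 3.57 to 6.50 times at 6 h and 4.55 to 9.35 times at 9 h. The looser flag for positive and significant signal was set on all 18 arrays.

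**Figure D2:**
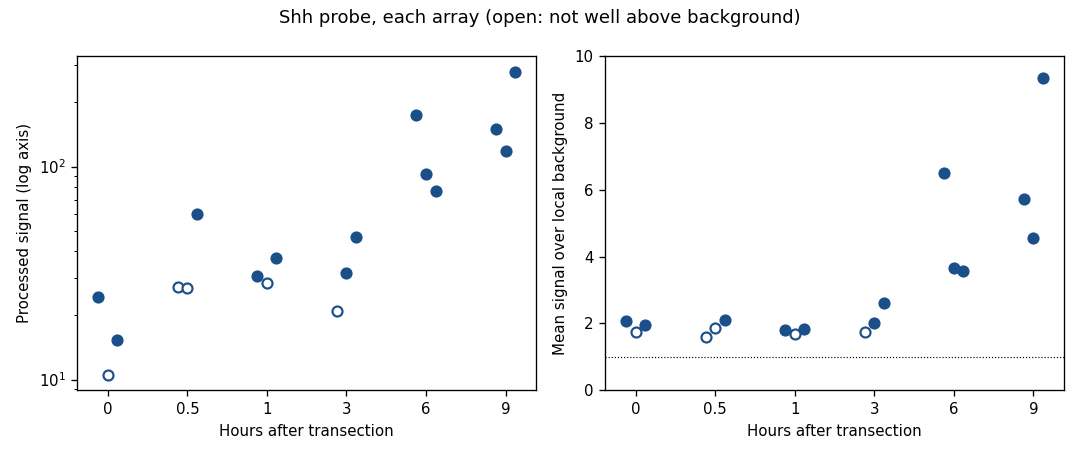
Processed signal of the Shh probe on a log axis (left) and its mean signal over the local background (right), for each array at each hour after transection. Filled points were well above background and open points were not, and the dotted line on the right marks a signal equal to its background. The 6 h and 9 h arrays lie between 77.0 and 279.3 on the left, above the highest earlier array at 59.6.

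Against 0 h the Shh level was higher by 2.51 at 6 h (95% interval 1.60 to 3.42, adjusted P = 0.00083) and by 3.10 at 9 h (2.18 to 4.01, adjusted P = 0.00013), n = 3 arrays a group. As Shh was not well above background on 1 of the 3 arrays of 0 h, the fold is given as a bound on the measured means. It was at least 4.92-fold at 6 h and 7.38-fold at 9 h. Here the dimmest signal that passed as well above background stood in place of any dimmer one at 0 h. The bound leaves out the spread between arrays and the choice of background correction. The intervals above reach lower, as do the values with normexp background correction given below. Shh was in the test only through the arrays of these 2 time-points, and with no filter on dim probes both contrasts passed as well (adjusted P = 0.0015 and 0.00025). At 0.5 h, 1 h and 3 h the differences were 1.03, 1.13 and 0.98, and none passed the test. Ordered by mean, the time-points ran 0 h, 3 h, 0.5 h, 1 h, 6 h and 9 h, and 1 h and 6 h were the only neighbours whose arrays did not overlap. Shh was 1 of 3333 gene names higher at 6 h, or 12.3% of those tested, and 1 of 4357 higher at 9 h, or 16% of them.

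Within the second scan day, the 6 h level of Shh was 1.38 above that of 1 h (adjusted P = 0.0258) and the 9 h level 1.65 above it (adjusted P = 0.0251), from limma fitted to the 11 arrays of that day. In all 18 arrays the 6 h difference from 1 h did not pass the test without array 1 or 2 of 1 h, or array 1 or 2 of 6 h, and ranged from 1.05 to 1.64 over all arrays left out. Background moved with time: its median over the array was 50 to 51.5 at 0 h, 70 to 88 at 0.5 h and 37 to 40 at 9 h. The dimmest sixth of tested probes, to which Shh belonged, had a median difference from 0 h of 0.50 at 6 h and 0.47 at 9 h, against 0.03 and 0.02 over all tested probes. With normexp background correction, which adds 50 units to every spot, the 6 h level of Shh was 0.89 above 0 h (adjusted P = 0.61) and the 9 h level 1.25 above it (adjusted P = 0.29), so that neither passed the test. Under that correction its difference between 6 h and 1 h turned to -0.25, and between 9 h and 1 h it was 0.12. The median difference of all tested probes from 0 h was then 0.32 at 1 h, -0.03 at 6 h and -0.04 at 9 h. That median was thus also lower at 6 h and 9 h than at 1 h. The part of the background in the rise was not tested.

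The Ihh probe that shares bases with the Shh probe was dim throughout, at 3.98 to 7.57 at 0 h, 8.95 to 30 at 6 h and 21.5 to 119 at 9 h. It was well above background on 0, 2 and 3 of 3 arrays at those times. It passed the filter on dim probes through its 9 h arrays alone. As it was well above background on no 0 h array, its rise at 9 h is a bound on the measured means too, at least 2.15-fold. A contribution of one transcript to the other probe was not tested.

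Dhh was bright at every time-point, with both probes well above background on all 18 arrays. The brighter probe is given first. The arrays of 0 h gave 25373, 31150 and 29613, at 0.5 h they gave 28674, 33339 and 26315, and at 1 h 34227, 31724 and 23722. Signals at 3 h were 31849, 27475 and 25873, at 6 h they were 28442, 31516 and 28170, and at 9 h 30199, 30357 and 28194. All 18 lay between 23722 and 34227, with no time-point apart from the others. Its level was 4.53 ± 0.21 (SD, n = 3) at 0 h, 4.70 ± 0.24 at 1 h and 4.24 ± 0.15 at 9 h, and every pair of neighbours in the order of means overlapped. It did not pass the F-test (adjusted P = 0.15), and its difference from 0 h ran from -0.29 at 9 h to 0.16 at 1 h, with no contrast passing. Between 1 h and 9 h it fell by 0.46 (adjusted P = 0.036), a call lost in 11 of the 18 fits that left out 1 array, and within the second scan day the difference of -0.38 did not pass (adjusted P = 0.14).

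The dimmer Dhh probe moved more. At 0 h its arrays gave 613.4, 567.1 and 619.4, at 0.5 h they gave 853.7, 727.3 and 695.0, and at 1 h 836.9, 695.5 and 927.6. At 3 h the signals were 723.3, 635.3 and 512.0, at 6 h they were 594.4, 607.1 and 657.2, and at 9 h 816.4, 749.9 and 1065.0. It passed the F-test (adjusted P = 0.0095), and relative to the 75th percentile its highest mean was at 1 h, where it was 0.56 above 0 h (adjusted P = 0.036), where 3.57% of probes were called higher. That 1 h call was lost in 7 of the 18 fits that left out 1 array, among them every fit without a 0 h array, with a difference of 0.45 to 0.68. Normexp background correction ended both the 1 h call (adjusted P = 0.17) and that of the F-test (adjusted P = 0.061). Both were also lost when arrays were centred on their median. From 1 h it fell by 0.77 to 6 h (adjusted P = 0.0016), where 12.4% of probes were called lower, and within the second scan day this contrast passed too (adjusted P = 0.0071). The 2 Dhh probes followed each other weakly over the 18 arrays, with r = 0.31, and differed 41.3-fold in mean brightness.

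The ligands were also set against each other. The log2 gap between the brighter Dhh probe and the Shh probe, which carries no meaning as a level because different probes bind with different strength, was 10.8 ± 0.76 (SD, n = 3) at 0 h. By 1 h the gap was 9.86 ± 0.47, by 6 h it was 8.09 ± 0.65, and by 9 h 7.44 ± 0.70. The signals as measured differed by 3.39 between 0 h and 9 h, but they include Shh arrays not well above background. The narrowing is therefore given as a bound on the means. It was at least 3.17 with Shh raised on each array to the dimmest signal that passed there. A permutation test of the F statistic over 6 time-points (100000 permutations of the time labels) gave P = 0.00059 for the signals as measured and P = 0.00013 with Shh so raised, and over the 11 arrays of the second scan day the permutation test gave P = 0.0137 and P = 0.00882. Shh was in this test through its 6 h and 9 h arrays alone, so the permutation P-values depend on where it was high. Raising Shh also narrowed the spread, at 0 h from an SD of 0.76 to 0.51, so the smaller P-values are not further support. The exact test of 9 h against 0 h alone gave P = 0.1, the smallest that 3 arrays against 3 can give. With normexp background correction the narrowing was 1.48 and the permutation test gave P = 0.41.

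**Figure D3:**
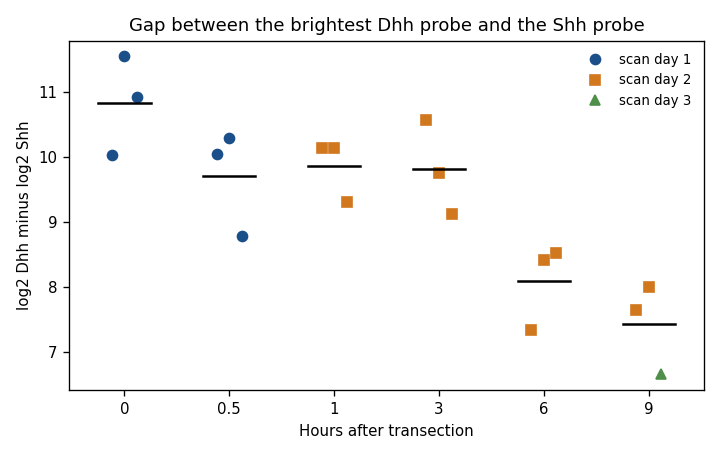
Log2 gap between the brightest Dhh probe and the Shh probe on each array, against hours after transection; symbols mark the scan day and bars the mean of 3 arrays. The mean gap was 10.8 at 0 h, or 10.6 with Shh raised to its bound where it was not well above background, and 7.44 at 9 h, and the 6 arrays of 6 h and 9 h lie below the 12 earlier ones.

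Markers of Schwann cells were read beside the ligands. Of 9 genes common to Schwann cells, 1 was higher at 9 h, Ngfr, a neurotrophin receptor, by 0.98, and 3 were lower, Cdh19, L1cam and Ncam1, which encode adhesion proteins, at -0.60 to -0.85. Their summed level overlapped between 0 h, at 58.7 to 72.5, and 9 h, at 54.8 to 64.2. All 10 genes read from a list for myelinating Schwann cells were well above background on every 0 h array. Their summed level, relative to the 75th percentile, ranged from 588.7 to 670.2 on the 0 h arrays and from 453.4 to 516.3 on those of 9 h. A sum follows its brightest genes, and the median difference of the 10 at 9 h was only -0.05. At 9 h 3 of the 10 were lower than at 0 h, namely Mag, Mal and Pmp22, which encode myelin proteins, with differences of -0.52 to -0.89. Over all gene names, 16% were higher and 15.2% lower at 9 h. Egr2, the transcription factor that drives myelin genes, was higher by 1.23 at 0.5 h and 1.44 at 1 h, and it passed at 3 h too. In whole tissue, fewer cells of a type and less RNA per cell cannot be told apart.

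Markers of other cells moved over the same hours. Of 6 neutrophil markers tested, 5 were higher at 6 h and 4 at 9 h, where 12.3% and 16% of gene names were, and their summed level went from 0.80 to 0.86 at 0 h to 15.4 to 24.3 at 6 h and 18.3 to 24.0 at 9 h. S100a8, a calcium-binding protein of neutrophils, was 6.13 higher at 9 h than at 0 h (adjusted P = 1.6e-07). Of 7 genes known in repair Schwann cells, 2 were higher and 1 lower at 6 h, where 12.3% of gene names were higher and 12.7% lower. Btc, a growth factor that was well above background on 1 of the 3 arrays of 0 h, was at least 3.73-fold higher, Sox2, a transcription factor, was higher by 0.61, and Olig1, another transcription factor, differed by -1.25 (adjusted P = 0.00090). At 9 h 3 of the 7 were higher, with Artn, a neurotrophic factor, beside Btc and Sox2, and Olig1 was again the 1 lower. Gdnf, another neurotrophic factor, did not pass at 6 h by its brightest probe, at 0.36. Its other probe, well above background on no 0 h array, was at least 14.7-fold higher at 6 h, so that its probes disagreed. The bounds for Btc and Gdnf, like those for Shh, are on the measured means only. Of 9 fibroblast genes, 5 were lower at 9 h, where 15.2% of gene names were, and their summed level went from 1128 to 1181 at 0 h to 768 to 835. Of 6 genes of the perineurium, the sheath that depends on Dhh, 3 were lower at 9 h, Cldn1 and Itgb4, of cell contacts, and the glucose transporter Slc2a1, and 1 was higher, Lypd2. Summed, the list lay between 229.1 and 273.0 on the 0 h arrays and between 137.1 and 182.4 on those of 9 h. Its median difference at 9 h was -0.25. Of 7 endothelial genes 3 were lower at 9 h, Cldn5, Emcn and Kdr, and the sum lay between 59.0 and 63.9 on the 0 h arrays and between 42.9 and 44.3 on those of 9 h. The sum of 7 macrophage markers overlapped between these times, with Cd163 higher and Adgre1 lower, and of 4 adipocyte and 2 erythroid markers none passed at 9 h in limma, nor had any an unadjusted P-value under 0.05. Skeletal muscle markers varied most between arrays, with a summed level of 71.8 to 1306 at 0 h and 1.01 to 100.3 at 9 h. The part of these cells in any Hedgehog value was not tested.

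The receptor Ptch1 gave different results by probe. The brightest, at chr17:7135918-7135977 of rn4, was lowest at 0 h. At 0 h its arrays gave 165.2, 133.4 and 157.1, at 0.5 h they gave 252.4, 276.6 and 548.4, and at 1 h 298.0, 248.5 and 300.0. At 3 h the signals were 170.8, 318.0 and 352.9, at 6 h they were 320.2, 291.1 and 215.3, and at 9 h 306.2, 371.3 and 1135. On the log2 scale all arrays of 0.5 h, 1 h, 6 h and 9 h were above those of 0 h, which 18%, 18.8%, 24.5% and 28.9% of all probes showed at these times in turn, while array 1 of 3 h, at -2.96, lay within the 0 h range of -3.19 to -2.93. At 9 h it was 1.40 higher than at 0 h (SE 0.42, adjusted P = 0.020), or 2.64-fold, and passed the test, but its F-test did not pass (adjusted P = 0.13). Array 3 of 9 h, the only one scanned on the third day, stood apart from the other two, and without it the difference was 0.86 and did not pass (adjusted P = 0.092). Leaving out any of the 0 h arrays also ended the call, as did normexp background correction (1.16, adjusted P = 0.15). So did weights for array quality (0.85, adjusted P = 0.043 with its own P-value at 0.020) and a fit to the 6 arrays of the contrast alone (adjusted P = 0.068). At 1 h, where the difference was 1.01, the limma fit to all arrays did not pass (adjusted P = 0.17). A limma fit to the 6 arrays of that contrast alone did (adjusted P = 0.0075).

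The dimmer Ptch1 probe crossed an exon junction and spanned chr17:7120748-7121410 of rn4. It stayed between 28.9 and 73.2 over the 18 arrays, and was well above background on 17 of them. It passed the F-test (adjusted P = 0.019), with its highest mean at 0.5 h and its lowest at 3 h. No contrast with 0 h passed in the main model, the nearest being 0.50 at 0.5 h (adjusted P = 0.090). That contrast passed with weights for array quality and with the replicate numbers as a block. Its F-test call was lost in 5 of the 18 fits without 1 array, and under quantile normalization, normexp background correction (adjusted P = 0.40), the deposited matrix (adjusted P = 0.11) and a trend and robust prior (adjusted P = 0.084). The 2 Ptch1 probes correlated over the arrays with r = 0.23 and differed 5.67-fold in mean brightness. The only Ptch1 contrast with 0 h that passed the test in the main model was therefore that of the brighter probe at 9 h.

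Ptch1 is a direct Gli target, and its promoter is printed because the letters of the classical Gli site stand in it. The 250 bases before the RefSeq start, at chr17:1555321-1555570 of the build GRCr8, plus strand, hold the motif TGGGTGGTC once, in capitals, ending 163 bases before the start.
Ptch1 promoter: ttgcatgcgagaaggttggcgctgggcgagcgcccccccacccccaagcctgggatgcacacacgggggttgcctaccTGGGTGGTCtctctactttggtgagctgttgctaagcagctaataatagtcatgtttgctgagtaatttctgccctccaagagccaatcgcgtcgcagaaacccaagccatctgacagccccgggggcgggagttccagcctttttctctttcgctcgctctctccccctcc
The motif, searched on both strands, was in 113 of 33469 promoters of the same length, or 0.338%. Of the 4 members with a promoter in that table, Dhh, Ptch1, Smo and Hhip, only Ptch1 held it, which says only that these letters were not in the windows of the others.

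Smo, the membrane protein that Ptch1 restrains, showed no change from 0 h that passed the test. Its probe, at chr4:56645157-56645216 of rn4, was the only one for this gene. The arrays of 0 h gave 269.8, 259.4 and 261.2, at 0.5 h they gave 358.1, 250.4 and 261.0, and at 1 h 283.0, 234.9 and 682.3. Signals at 3 h were 237.0, 200.1 and 169.9, at 6 h they were 292.0, 194.3 and 242.9, and at 9 h 314.9, 393.6 and 360.2. Array 3 of 1 h was far above the rest, and relative to the 75th percentile every pair of neighbours in the order of means overlapped. Differences from 0 h ran from -0.41 at 3 h to 0.55 at 1 h, and the F-test did not pass (adjusted P = 0.12). Smo was 0.95 lower at 6 h than at 1 h (adjusted P = 0.035), where 12.7% of gene names were lower. The call was lost in 12 of the 18 fits that left out 1 array, and without array 3 of 1 h the difference itself was -0.46; it did not pass within the second scan day (adjusted P = 0.093).

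Gli1, the transcription factor whose own gene is a target of the pathway, was lower at 3 h on both bright probes. The brightest, at chr7:67288442-67288501 on the minus strand of rn4, is given in full. The arrays of 0 h gave 7773, 8419 and 9774, at 0.5 h they gave 8949, 8662 and 8796, and at 1 h 8864, 8777 and 8599. Signals at 3 h were 6203, 4734 and 6173, at 6 h they were 8619, 7894 and 8995, and at 9 h 7925, 8271 and 7612. By this signal the 3 h arrays were the lowest of the 18, while relative to the 75th percentile of each array they overlapped those of 9 h, at 1.99 to 2.32 against 2.20 to 2.50.

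Against 0 h the brightest Gli1 probe was lower by 0.62 at 3 h, a difference of -0.62 (SE 0.12, adjusted P = 0.0032), where 6.44% of gene names were lower. At 6 h the difference was -0.28 and did not pass (adjusted P = 0.090). At 9 h it was -0.46 and passed (adjusted P = 0.0082), but not without array 3 of 0 h, when it was -0.34. With normexp background correction the 3 h call was kept (adjusted P = 0.040), while those of 9 h (adjusted P = 0.14) and of the F-test (adjusted P = 0.054) were lost, and so were those against 1 h at 3 h (adjusted P = 0.078), 6 h (adjusted P = 0.31) and 9 h (adjusted P = 0.13). Fitted to the 6 arrays of each contrast alone, neither 3 h (adjusted P = 0.054) nor 9 h (adjusted P = 0.070) passed against 0 h. The probe 196 bases away gave -0.60 at 3 h (adjusted P = 0.024), where 6.02% of probes were lower, and -0.41 at 9 h, which did not pass (adjusted P = 0.060). Its 3 h call was lost without array 2 or 3 of 0 h or array 2 of 3 h.

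Within the second scan day, Gli1 was lower at 3 h than at 1 h by 0.76 on the brightest probe, a difference of -0.76 (adjusted P = 0.0054), and by 0.72 on its neighbour, a difference of -0.72 (adjusted P = 0.025). The brightest also differed from 1 h by -0.42 at 6 h (adjusted P = 0.021), and the 9 h difference of -0.52 passed as well (adjusted P = 0.018). Both bright probes followed each other closely over the 18 arrays, with r = 0.95. The third probe crossed an exon junction, read 47.2 to 133.3, was 112-fold dimmer than the brightest in mean, correlated with it at r = -0.07, and passed no test on this scale. Under quantile normalization it passed the F-test (adjusted P = 0.022) and was lower than at 0 h in the contrasts of 0.5 h (adjusted P = 0.032) and 3 h (adjusted P = 0.036), and with the deposited matrix these calls were made too.

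Hhip, the inhibitor that binds Hedgehog ligands, fell on both probes from 3 h on. The brighter probe is given in full. At 0 h its arrays gave 851.8, 754.6 and 549.1, at 0.5 h they gave 638.4, 764.4 and 732.1, and at 1 h 478.4, 659.1 and 448.6. At 3 h the signals were 290.5, 331.0 and 382.5, at 6 h they were 335.9, 212.9 and 244.9, and at 9 h 214.7, 285.9 and 280.7. All 9 arrays of 3 h and later were below all 9 earlier ones. Of all probes, 16.5%, 21.3% and 24.3% had every array of 3 h, 6 h and 9 h, in turn, below those of 0 h.

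Against 0 h the brighter Hhip probe stood at -1.10 for 3 h (adjusted P = 0.0028), -1.70 for 6 h (adjusted P = 5.9e-05) and -1.79 for 9 h (adjusted P = 2.9e-05), and all passed. The 9 h interval was -2.23 to -1.36, or 3.46-fold lower. At 6 h 12.7% of gene names were lower, and at 9 h 15.2%. At 0.5 h and 1 h the differences of -0.12 and -0.32 did not pass. Ordered by mean, the time-points ran 9 h, 6 h, 3 h, 1 h, 0.5 h and 0 h, and the only neighbours whose arrays did not overlap were 3 h and 1 h.

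The dimmer Hhip probe, at chr19:29840368-29840427 of rn4, read 223.4, 169.5 and 144.5 at 0 h and 86.0, 87.9 and 112.9 at 9 h. Its differences from 0 h were -0.62 at 3 h (adjusted P = 0.031), -0.85 at 6 h (adjusted P = 0.0028) and -1.23 at 9 h (adjusted P = 0.00016), and all passed, where 6.02%, 12.1% and 14.7% of probes were lower. The 3 h call was lost without array 1 or 2 of 0 h or of 3 h. Both probes followed each other over the 18 arrays with r = 0.94.

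Within the second scan day the brighter Hhip probe was lower than at 1 h by 1.38 at 6 h, a difference of -1.38 (adjusted P = 0.0039), and by 1.49 at 9 h, a difference of -1.49 (adjusted P = 0.0060). The 3 h difference of -0.78 did not pass there (adjusted P = 0.071). With normexp background correction the brighter probe kept its calls at 6 h, at -1.55 (adjusted P = 0.0049), and at 9 h, at -1.64 (adjusted P = 0.0023), while the 3 h call was lost at -0.67. The dimmer probe passed at no time-point under that correction, and its 3 h difference turned to 0.30.

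**Figure D4:**
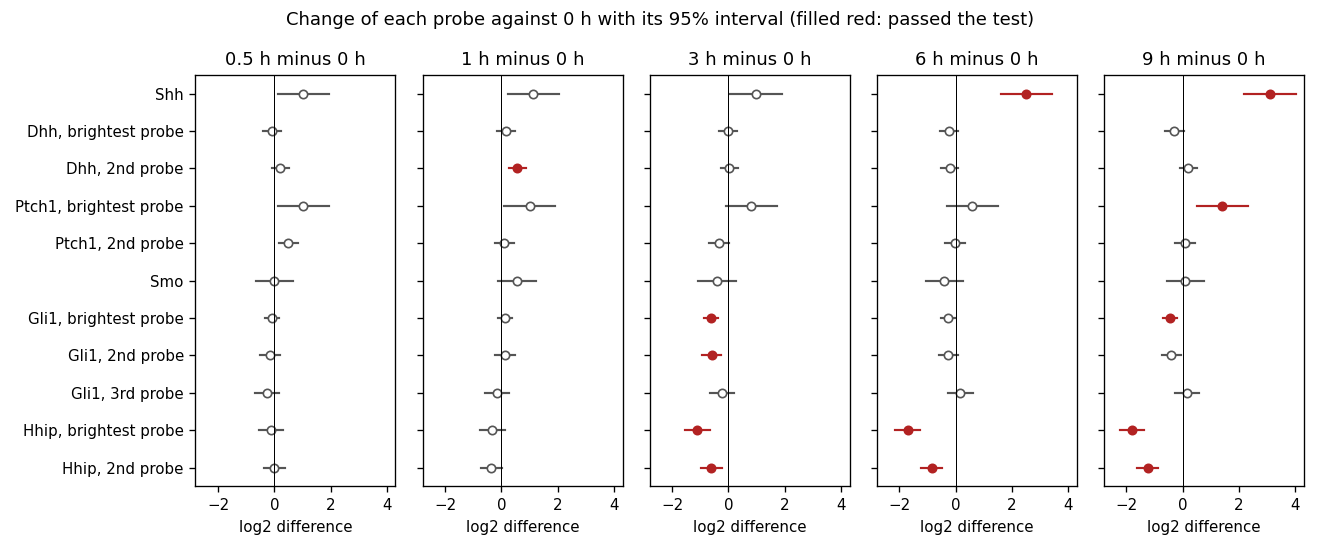
Log2 difference of each Hedgehog probe from 0 h at each later time-point, with its 95% interval from limma, n = 3 arrays a group. Filled red points passed the test and open grey ones did not. Shh at 6 h and 9 h is the only member past 2 on the higher side, and both Hhip probes pass on the lower side at 3 h, 6 h and 9 h.

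Read by time-point, no member passed at 0.5 h, where 6.1% of gene names did, and 3 of the 11 probes, those of Shh and Ptch1, had an unadjusted limma P-value under 0.05. None passed at 1 h by its brightest probe, where 5.73% did, and 3 probes, 1 each of Dhh, Shh and Ptch1, had an unadjusted limma P-value under 0.05. At 3 h Gli1 and Hhip passed, 2 of 6 where 14% did. At 6 h Shh and Hhip passed, 2 of 6 where 25% did. At 9 h Shh, Ptch1, Gli1 and Hhip passed, 4 of 6 where 31.3% did. In all, 8 of 30 pairs of a member and a time-point passed. Against 1 h, 10 of 18 pairs passed: Gli1 and Hhip at 3 h, where 10.2% of gene names did, Shh, Smo, Gli1 and Hhip at 6 h, where 24.1% did, and Dhh, Shh, Gli1 and Hhip at 9 h, where 25.6% did.

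By brightest probe the direction of the members was mixed. Shh was higher at 6 h and 9 h while 2 of the 3 targets, Gli1 and Hhip, were lower at 3 h and 9 h. Ptch1 was higher at 9 h, a call lost without array 3 of 9 h or any 0 h array. The 9 h call of Gli1 was lost without array 3 of 0 h. Normexp background correction ended the calls of Shh and Ptch1, of Gli1 at 9 h and of Hhip at 3 h. At 9 h the dimmer Ptch1 probe stood at 0.08 and the third Gli1 probe at 0.15, and neither passed. Over the 6 brightest probes the median difference from 0 h was -0.25 at 6 h and -0.10 at 9 h, beside 0.02 over all gene names at both times. All contrasts with 0 h share the same 3 arrays.

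**Figure D5:**
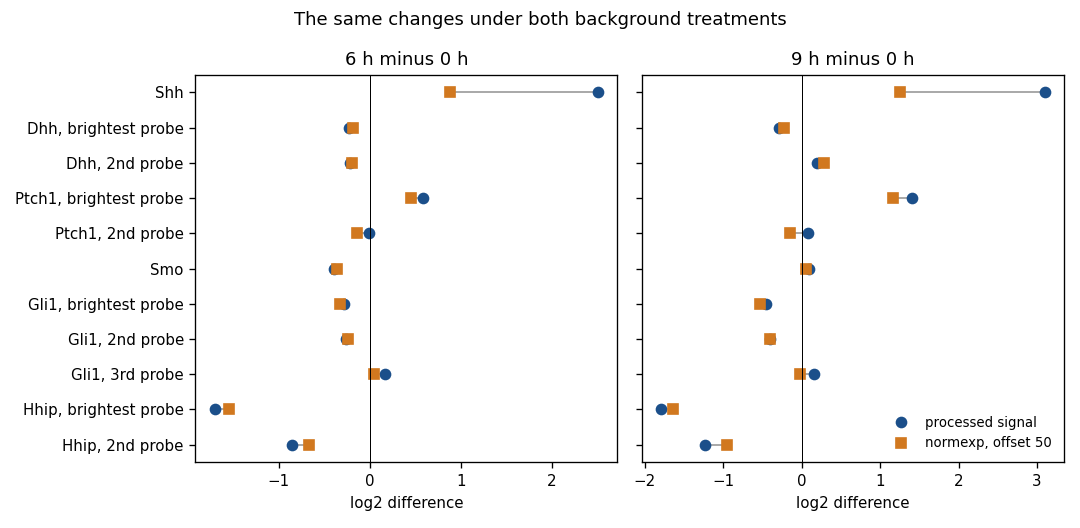
Log2 difference of each Hedgehog probe from 0 h at 6 h (left) and 9 h (right), from the processed signal (circles) and after normexp background correction with an offset of 50 (squares). The Shh difference at 9 h goes from 3.10 to 1.25, whereas the brighter Hhip probe goes from -1.79 to -1.64.

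Other genes of the pathway were read from a list of 35, of which 30 were on the array by name and 27 were tested. By brightest probe 8 of 27 passed the F-test, where 34.8% of gene names did, and Scube1, a secreted helper of ligand release, passed by its other probe. Against 0 h at 9 h, 2 of 27 were higher and 4 lower, where 16% and 15.2% of gene names were, so that neither count stood above that of all genes. The median difference was -0.04, beside 0.02 over all gene names.

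Of those higher, Arrb1, an arrestin that binds Smo, was up at each time-point, by 1.17 at 0.5 h (adjusted P = 0.018) and still by 1.12 at 9 h (adjusted P = 0.0042). Disp2, of the family that releases ligand, was 1.99 higher at 9 h (adjusted P = 0.024) without passing the F-test. Ihh on its brightest probe was higher by 0.62 at 0.5 h (adjusted P = 0.043), and with a value of 0.61 the 1 h contrast passed too (adjusted P = 0.047), while at 9 h it stood at -0.03.

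Of those lower at 9 h, Gli2, the main activator of the Gli family, fell by 0.58 (adjusted P = 0.0013), while its dimmer probe gave 1.59 in the other direction (adjusted P = 0.013). Kif7, a kinesin of the cilium that regulates Gli proteins, fell by 0.50 (adjusted P = 0.0027), while its other probe, at -0.12, did not pass (adjusted P = 0.36). Gpc3, a glypican that binds ligand, fell by 0.47 (adjusted P = 0.012), and Lrp2, a receptor that takes up ligand, by 0.42 (adjusted P = 0.026). Grk2, a kinase of Smo, was lower at 0.5 h by 0.39, a difference of -0.39 (adjusted P = 0.017). Csnk1a1, a kinase of Smo and Gli proteins, passed the F-test on both of its probes (adjusted P = 0.015 and 0.0037) with no contrast passing on the brightest, and its other probe was higher by 0.41 at 3 h (adjusted P = 0.040).

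Of 10 genes named as likely targets, 8 were on the array and tested, and 3 of the 8 passed the F-test, where 34.8% of gene names did, a share near that of all genes. They were Ccnd1, a cyclin of the cell cycle, Foxc2, a transcription factor, and Spp1, which encodes osteopontin. Ccnd1 fell by 0.68 at 3 h (adjusted P = 0.00065) and stood at 0.08 at 9 h, so that its lowest mean, like that of Gli1, was at 3 h. Its other probe differed by -0.97 at 3 h (adjusted P = 0.00030) and still passed at 6 h with -0.61 (adjusted P = 0.0041). Foxc2 fell by 0.58 at 3 h (adjusted P = 0.043), while its other probe rose by 0.85 at 1 h (adjusted P = 0.0022) and still passed at 3 h with 0.43 (adjusted P = 0.043), so that the probes disagreed. Igfbp6, a binding protein of insulin-like growth factors, fell by 0.35 at 9 h (adjusted P = 0.012) without passing the F-test, and no likely target was higher than at 0 h by its brightest probe.

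Genes whose levels followed a member most closely were sought among 11329 gene names well above background on all 18 arrays, for every member but Shh, which was not well above background on all of them. For Dhh they were Pcbp4, Mrap, Tm7sf2, Fxyd3 and Prss12, with r between 0.91 and 0.95. For Gli1 they were Tle1, Tox3, Shroom1, B9d2 and Pcsk4, at 0.91 to 0.94. For Hhip they were Igdcc4, Calml4, Acad10, Cep20 and Pkmyt1, at 0.94 to 0.96.

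For Smo the nearest were Zer1, Dctn1, Retreg2, Crocc and Cdc42ep1, at 0.93 to 0.94. For the brightest Ptch1 probe they were Vom2r47, Or5h26, Heyl, Adgrg5 and Or2t1, at 0.95 to 0.98, of which Vom2r47, Or5h26 and Or2t1 are named as receptors of the olfactory and vomeronasal families. All points share the arrays and their scaling, so these correlations describe likeness over 18 arrays and carry no test.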

How the data were processed

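RNA of proximal sciatic nerve was hybridised to 18 one-colour Agilent arrays. The authors deposited scanner output of Feature Extraction (10.5.1.1 in the file headers), whose processed signal is an intensity with background subtracted and spatial trends removed, and a matrix of log2 values. That deposited log2 matrix held the same distribution on every array, within 0.00168 at any rank (median 7.75), and served as an alternative. Groups came from the labels. Control and outlier spots were left out, no spot was saturated, spots of a probe were averaged, and each array was shifted on the log2 scale to a 75th percentile of 0. Of 41012 probes, 16336 were named by accession through a RefSeq table (GRCr8), 3732 by symbol, 1098 by an older symbol, and 19846 kept the file's name. Coordinates are those of the files (rn4). The model was limma's (3.58.1, R 4.3.3), checked on simulated data. A gene was read by its brightest probe, with any probe as an alternative. Every probe of a member was given. Named besides were pathway genes and likely targets passing the F-test, others only where a count was of 5 or fewer, and the 5 genes most like each member except Shh. Of the myelinating Schwann cell markers listed, 2 are not reported here. Members, lists and tests were chosen with earlier results of these data known. Alternatives were normexp (offset 50), quantile or median scaling, the deposited matrix, filters, blocks, array weights, priors, thresholds and leaving out each array. Python 3.11.15, numpy 2.4.6, pandas 2.3.3 and scipy 1.17.1 were used for permutation tests.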

Additional observations from a re-analysis of the deposited data

How the results depend on the processing

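With normexp background correction the members passing the F-test went from 3 to 1, the pairs of member and time-point passing against 0 h from 8 to 3, the pairs passing against 1 h from 10 of 18 to 2, and the other pathway genes passing from 8 to 1. Read by any probe, 5 members passed the F-test. Under normexp the gap between Dhh and Shh moved by -1.48 from 0 h to 9 h (permutation test P = 0.41). The dimmer Hhip probe at 3 h turned to 0.30 and Shh at 6 h against 1 h to -0.25. Under that correction the median difference of all probes from 0 h was 0.32 at 1 h and 0.44 at 3 h. The dimmer Hhip probe stood below the latter. By 6 h this median had dropped to -0.03, below its 1 h value. The turn of Shh thus went the same way as the median of all probes, and is not read as a fall of Shh itself. Under a shift to the array's median, the median difference of all probes from 0 h was -0.17 to -0.09. The cause of these changes was not tested. Leaving out 1 array gave 3 members, 6 to 8 pairs against 0 h, 7 to 10 pairs against 1 h and 6 to 9 pathway genes, and the gap moved by -3.79 to -3.00. The replicate block gave 3 members, 8 pairs against 0 h, 10 against 1 h and 8 pathway genes, and changed none of these counts. The calls behind them differed. In limma with the block Smo at 6 h against 1 h was lost (its own P-value 0.012, adjusted P = 0.046), and the brighter Dhh probe at 6 h against 1 h (adjusted P = 0.036) and the dimmer Ptch1 probe at 0.5 h against 0 h (adjusted P = 0.043) were gained. The numbers were not taken as pairing the arrays, since not every pair of one number correlated above 0.1 (45 pairs, -0.26 to 0.57, median 0.07, beside 0.007 for different numbers), although 10 of 18 arrays were closest to their own number. The flag for positive and significant signal counted 198 of 198 probes and arrays as detected, and the main flag 192. The alternatives against 1 h, the dimmer Dhh probe in the gap (-2.90), Shh at its bound there (-3.17) and any probe for the pathway genes (9) were chosen after the data were seen. Precision is limited by 3 arrays a group and, for Shh, by a signal near its background.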
